A study of Mus musculus with 6 samples.

Results

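Vascular leptomeningeal fibroblasts made up 665 of the 77421 nuclei (0.859%) that passed the filters in 6 single-nucleus RNA libraries of mouse hippocampus. A nucleus was kept if it had 500 or more UMIs (unique molecular identifiers, each standing for 1 captured RNA molecule), 300 or more detected genes, and no more than 5% of its UMIs from mitochondrial genes. It counted as a fibroblast nucleus when at least 3 of 9 genes (Slc6a13, Col1a1, Col1a2, Col3a1, Dcn, Lum, Bnc2, Slc47a1 and Foxc1) had a UMI, Col1a2, Slc6a13 or Bnc2 among them. It also had at most 1 UMI of Slc17a7, the vesicular glutamate transporter of excitatory neurons, and at most 1 of Gad1 and Gad2 together, the GABA-synthesizing enzymes of inhibitory neurons. The rule reads RNA levels, so the levels of these genes in the chosen nuclei describe the choice and are no finding.

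Vascular leptomeningeal cells are the fibroblasts of the pia and arachnoid and of the spaces around larger vessels that enter the brain. They lay down collagens, laminins and small leucine-rich proteoglycans, and the arachnoid layer carries transporters that move organic ions and metabolites between blood, cerebrospinal fluid and brain. They also secrete prostaglandin D2 synthase (Ptgds) and make and break down retinoic acid. They are few beside neurons and glia in any piece of brain, and a hippocampal dissection holds them along its surface and its penetrating vessels.

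Each of the 6 groups was 1 library from mice of the B6 strain aged 9 months. FE3 and FE4 were untreated APOE3 fl/fl and APOE4 fl/fl mice, in which both alleles for human apolipoprotein E are flanked by loxP sites. TAFE3_oil and TAFE3_tam came from P301S mice, which carry mutant human tau, with APOE3 fl/fl and the tamoxifen-inducible Cre that the labels write as Aldh1la1CreERT, and received oil or tamoxifen. TAFE4_oil and TAFE4_tam were the same with APOE4 fl/fl. All 6 groups shared floxed human APOE. The tau transgene, Cre and oil came together in the oil libraries against FE3 and FE4, and tamoxifen came together with the deletion, so within each of these pairs the parts cannot be told apart. The driver of the tau transgene, the sex of the mice and the number of mice per library are not given in the sources used here. With 1 library a group no comparison has a replicate check and no test was made. Every interval below is a 95% counting interval (exact binomial for shares and for log2 ratios, exact Poisson for levels) and covers counting error only, not the spread between mice.

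The libraries held 39050503 to 49083723 UMIs in 14762 to 18171 barcodes, and kept nuclei had a median of 2283 to 2652 UMIs. Pairs of libraries shared 65 to 83 barcodes, and no 2 fibroblast nuclei of different libraries shared one. Nuclei with UMIs of at least 4 of 10 liver genes numbered 51 in TAFE4_tam and 13 in the other 5 libraries together. Of the fibroblast nuclei, 5 in TAFE4_tam and 1 in FE4 carried them. Scrublet marked 41 of the 665 as possible doublets (10, 1, 4, 6, 4 and 16 in the order FE3, FE4, TAFE3_oil, TAFE3_tam, TAFE4_oil, TAFE4_tam), and they were kept.

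Fibroblast nuclei were a small share of every library, lowest in FE4 and highest in TAFE4_tam. They numbered 95 of 10948 nuclei in FE3 (0.868%, 0.703 to 1.06), 92 of 16537 in FE4 (0.556%, 0.449 to 0.682) and 87 of 11631 in TAFE3_oil (0.748%, 0.600 to 0.922). TAFE3_tam had 90 of 10817 (0.832%, 0.670 to 1.02), TAFE4_oil 125 of 13046 (0.958%, 0.798 to 1.14) and TAFE4_tam 176 of 14442 (1.22%, 1.05 to 1.41). The FE4 interval lay below those of FE3, TAFE4_oil and TAFE4_tam, and the tamoxifen and oil intervals overlapped in both backgrounds. The limit on mitochondrial UMIs bore on this order. It removed 58.3, 32.4, 51.9, 60.4, 58.6 and 25.4% of the nuclei that otherwise met the rule, in the library order above. Without it the shares were 1.45, 0.751, 1.22, 1.54, 1.83 and 1.45%, so TAFE4_tam lay above TAFE4_oil with the limit and below it without.

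**Figure D1:**
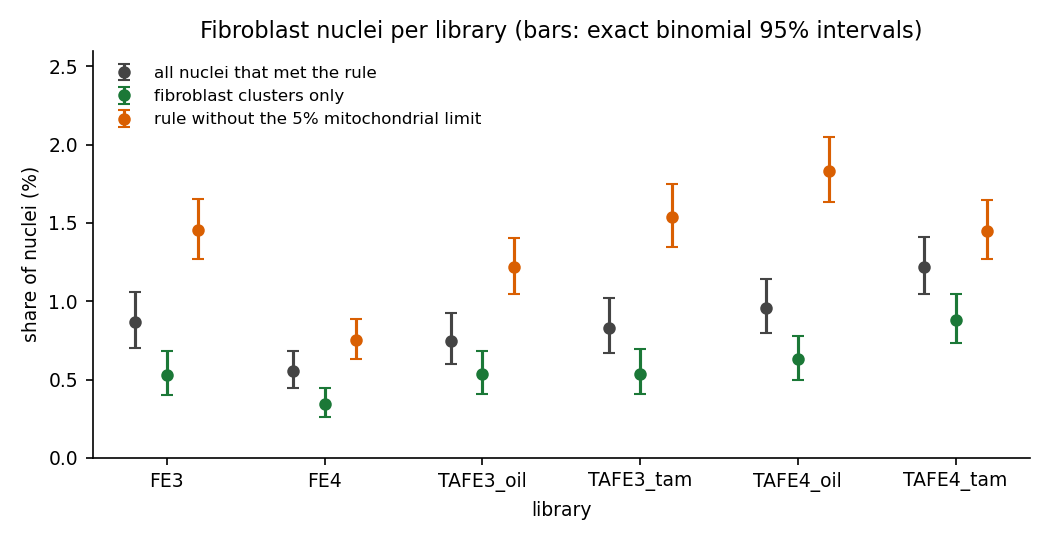
Share of nuclei (y axis, percent) in each library (x axis) that met the fibroblast rule, that fell in the 3 fibroblast clusters described below, and that met the rule without the limit on mitochondrial UMIs; bars are exact binomial 95% intervals. FE4 is lowest in all 3 series, and TAFE4_tam is above TAFE4_oil only with the mitochondrial limit.

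Of the 665 nuclei, 287 had exactly 3 of the 9 marker genes, the fewest the rule allows, with a median of 1749 UMIs, and those with 4 or more had a median of 2353. Another 470 nuclei were 1 marker short, with a median of 1780 UMIs. Ptgds, which the rule did not use, stood at 14226 CPM (a gene's UMIs scaled to a total of 1e6) in the nuclei 1 marker short and at 21629 CPM in those with exactly 3.

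Genes that the rule did not use matched the label. In all 6 libraries the matrix proteoglycan fibromodulin (Fmod) was 5.96 to 6.88 log2 units higher in fibroblast nuclei than in all other nuclei. The organic anion and cation transporters Slc22a6 and Slc22a2 were 5.65 to 6.58 and 5.34 to 7.24 higher, and the growth factor Igf2 5.45 to 6.38. Aldh1a2, which makes retinoic acid, was 5.44 to 6.44 higher, Wnt6 5.09 to 6.54, and the gap junction protein Gjb2 (connexin 26) 5.46 to 6.05. The transcription factors Foxd1 and Tbx18, known from meningeal and mural lineages, were 5.33 to 5.97 and 5.00 to 6.02 higher. In total 595 of 9844 genes measured were at least 4-fold higher in each of the 6 libraries. These values describe nuclei picked by their RNA and are given with no test.

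The 665 nuclei were not of 1 kind. Clustered by their own RNA, they fell into 8 clusters, and 221 nuclei were set aside by a threshold chosen after the data were seen: a cluster whose nuclei had a median of 5 or more UMIs of another cell type's markers, or a nucleus with liver genes. Cluster 3 (97 nuclei, led by Gabrb2, Lrrc7 and Kcnip4) and cluster 7 (21) carried neuronal genes, cluster 5 (52, led by Cytl1, Cnn1, Ptprb and Acta2) endothelial and smooth muscle genes, and cluster 6 (45, led by Cxcl5, Rfx4, Myoc and Aqp4) astrocyte and choroid plexus genes. Slc26a7, Adamtsl3 and the rule gene Slc47a1 were also among the leading genes of cluster 7, as they were of cluster 4, described below. Cluster 8 held 4 nuclei of TAFE4_tam led by liver genes such as Cps1 and Mug1. Nuclei set aside made up 38.9, 38.0, 28.7, 35.6, 34.4 and 27.8% of the members in the library order above. The remaining 444 nuclei (58, 57, 62, 58, 82 and 127), in clusters 1, 2 and 4, are called the fibroblast clusters below. Their median depth was 1447.5, 1310, 1666.5, 1670.5, 1673 and 1454 UMIs.

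Summed over these 444 nuclei, the given markers were present in every library, though cluster 4, described below, was low in Slc6a13 and Dcn. Slc6a13, a GABA and taurine transporter, was at 1041 to 1333 CPM, against 7.18 to 14.8 CPM in all other nuclei. Col1a2, a chain of type I collagen, was at 552 to 908 CPM against 4.40 to 7.62. The proteoglycan decorin (Dcn) was at 946 to 1643 CPM against 31.6 to 82.8, and the zinc finger factor Bnc2 at 83.1 to 178 against 0.660 to 1.20. Markers of other cell types were also read. Neuronal markers summed to 662 to 757 CPM, against 2315 to 2607 in other nuclei, and oligodendrocyte markers to 748 to 1961 against 991 to 1621. Astrocyte markers summed to 586 to 1789 CPM against 658 to 1063. The 8 endothelial markers summed to 285 to 519.6 CPM against 80.0 to 145, and 5 of the 8 had at least 20 UMIs. The 10 pericyte and smooth muscle markers summed to 2254 to 3270.3 CPM against 99.2 to 184, most of it vitronectin (Vtn, 1796 to 2909.98 CPM). Of the 10, 6 had at least 20 UMIs, the pericyte genes Rgs5 and Atp13a5 and the contractile genes Acta2, Myh11 and Tagln among them. The pericyte genes Abcc9, Kcnj8, Notch3 and Higd1b had fewer than 20 UMIs each. Border macrophage markers summed to 48.8 to 248 CPM against 13.1 to 26.4, with Lyve1 at 0. Choroid plexus markers, chiefly transthyretin (Ttr), summed to 3217 CPM for FE3, 1359 for FE4, 2397 for TAFE3_oil, 1308 for TAFE3_tam, 527 for TAFE4_oil and 1988 for TAFE4_tam. The same list in all other nuclei was at 1772 CPM for FE3, 1041 for FE4, 1957 for TAFE3_oil, 1244 for TAFE3_tam, 255 for TAFE4_oil and 1091 for TAFE4_tam, so both were lowest in TAFE4_oil. The part of RNA from these other cells in the results below was not tested.

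The 3 fibroblast clusters differed in transporters, matrix and Ptgds, as the heat map of 24 genes shows. Cluster 1 (224 nuclei) was led by Hapln2, Efcc1, Col27a1, Col26a1, Cemip and Pdgfra. It had the most Slc6a13 (1787 CPM, against 1178 in cluster 2 and 24.3 in cluster 4). The same held for Slc7a11, the cystine-glutamate exchanger (2087, 1165 and 24.3 CPM), and the laminin chain Lama1 (176, 115 and 0). Oligodendrocyte markers summed to 1870.2 CPM in cluster 1, and Hapln2 is itself known from myelin. Cluster 2 (146 nuclei) was led by Tmem212, Loxl1, Dapl1, Il13ra2, Serpind1 and Nnat. It had the most Ptgds (108430 CPM, against 20825 in cluster 1 and 7194 in cluster 4). Neuronatin (Nnat), a small membrane protein, was at 2774 CPM in cluster 2, against 399 and 219. Fibromodulin was at 768 CPM against 259 and 30.4, and Igf2 at 829.9 against 265 and 0. Cyp26b1, which breaks down retinoic acid, was at 410.4 CPM against 76.6 and 12.2.

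Cluster 4 (74 nuclei) was led by Slco4a1, Slc47a1, Adamtsl3, Col25a1 and Slc26a7. It was low in Slc6a13, Slc7a11, decorin and lumican, which the other clusters shared. It held most of the UMIs of the organic cation exporter Slc47a1 (1185 CPM, against 12.8 in cluster 1 and 32.1 in cluster 2) and the bicarbonate transporter Slc4a10 (1239 against 60.6 and 43.6). The amino acid transporter Slc38a2 was at 3348 CPM in it, against 319 and 413. The Wnt agonist Rspo3 was at 820.2 CPM against 22.3 and 45.9, the matricellular protein Nov at 789.8 against 35.1 and 82.5, and Bnc2 at 444 against 47.9 and 64.2. The clusters were formed from these genes, so the differences carry no test. Markers listed for dura and dural border summed to 4484 CPM in cluster 4, against 664 in cluster 1 and 1644 in cluster 2. Arachnoid barrier markers summed to 2193 CPM, against 734 and 1310 (cluster 2 here with its 2 liver-gene nuclei). Both lists hold the rule gene Slc47a1, and neither entered the threshold for setting clusters aside. The meningeal layer that cluster 4 came from was not tested.

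**Figure D2:**
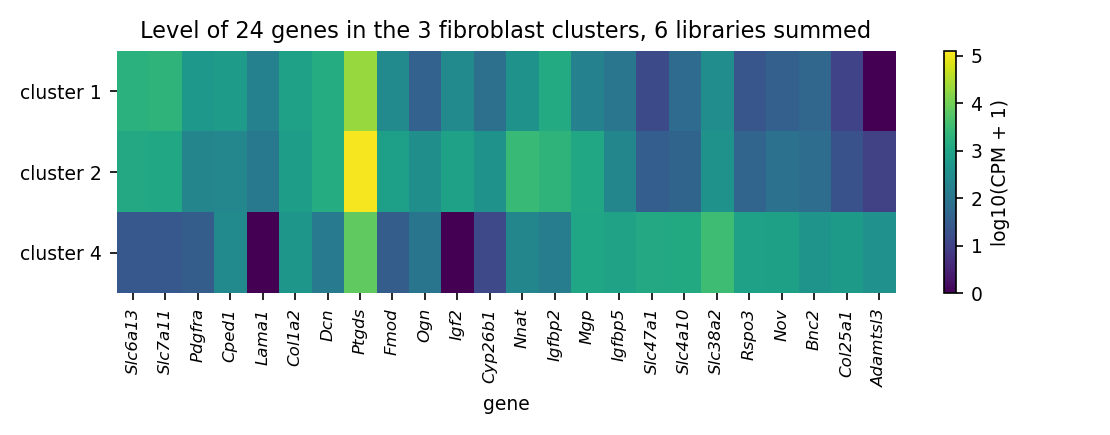
Level of 24 genes (x axis) in the 3 fibroblast clusters (y axis), colour giving log10(CPM + 1) with the 6 libraries summed. Clusters 1 and 2 share Slc6a13, Slc7a11 and Dcn, cluster 2 is highest in Ptgds and Nnat, and cluster 4 is high in Slc47a1, Slc4a10, Slc38a2 and Rspo3 and has no UMI of Lama1 or Igf2.

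All 3 clusters occurred in every library. Cluster 1 made up 60.3, 57.9, 54.8, 39.7, 46.3 and 48.0% of the fibroblast clusters in the library order above. Cluster 2 made up 24.1, 29.8, 33.9, 36.2, 29.3 and 38.6%. Cluster 4 made up 15.5% (7.35 to 27.4) in FE3, 12.3% (5.08 to 23.7) in FE4, 11.3% (4.66 to 21.9) in TAFE3_oil, 24.1% (13.9 to 37.2) in TAFE3_tam, 24.4% (15.6 to 35.1) in TAFE4_oil and 13.4% (8.0 to 20.6) in TAFE4_tam. Its share was thus higher with tamoxifen than with oil in the APOE3 pair and lower in the APOE4 pair, with overlapping intervals in both. The nuclei per library in cluster 4 were 9, 7, 7, 14, 20 and 17. Cluster 7, which shared leading genes with cluster 4 but was set aside for neuronal genes, had 0, 5, 2, 4, 7 and 3. Its nuclei are not in these shares.

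Many matrix genes outside the rule were also above the level of other nuclei. Of 17 basement membrane genes listed, 13 were above it in all 6 libraries, as were 25 of 29 proteoglycans and other matrix genes, the rule genes Dcn and Lum among them. Of 7 fibrillar collagen genes 4 were above it, and 3 of these 4 (Col1a1, Col1a2 and Col3a1) were genes of the rule. The share of all genes above other nuclei in all 6 libraries is not given here, so these counts are a description only. The laminin chain Lamb2 was at 163 to 326 CPM against 7.21 to 10.2 in other nuclei. Nidogen 1 (Nid1), which links laminin to type IV collagen, was at 106 to 201 CPM against 1.67 to 3.05. Col4a1 and Col4a2, the common chains of type IV collagen, were less selective: Col4a2 was at 40.7 to 152 CPM against 91.5 to 157 in other nuclei. Matrix Gla protein (Mgp) was at 473 to 1074 CPM and the procollagen enhancer Pcolce at 266 to 333. The protease inhibitor Timp3 was at 499 to 838 CPM against 30.4 to 41.8.

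The transporter list was measured in full. All 31 transporter and barrier genes listed had at least 20 UMIs, and 28, the rule genes Slc6a13 and Slc47a1 among them, were above other nuclei in all 6 libraries. This count too is a description, with no share over all genes beside it. The organic anion transporters Slc22a6 and Slc22a8 were at 203 to 407 and 184 to 443 CPM, and the sulfate transporter Slc13a4 at 277 to 653. Aldh1a2, the retinoic acid synthesis gene, was at 88.9 to 159.5 CPM.

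Among growth factors and receptors, Bmp7 was at 181 to 301.02 CPM, the chemokine Cxcl12 at 172 to 404 and the receptor Pdgfrb, shared with pericytes, at 290.4 to 394. Zic1 and Zic4, transcription factors of the meninges and hindbrain, were at 335 to 591 and 267 to 388 CPM, and Foxc1, whose loss disturbs meningeal development, was one of the rule's genes. Periostin (Postn) and tenascin C (Tnc), genes of scar-forming fibroblasts, had fewer than 20 UMIs over all 6 libraries, while osteopontin (Spp1) was at 464 to 963 CPM. The complement C1 inhibitor (Serping1) was at 163 to 325 CPM, against 3.83 to 7.39 in other nuclei. C3 had fewer than 20 UMIs.

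Human APOE, the gene the study deletes, was lower with tamoxifen than with oil in fibroblast nuclei of both backgrounds, more so with APOE4 over all members. Over all 665 nuclei it stood at 6983 CPM for FE3, 6662 for FE4, 5382 for TAFE3_oil, 4629 for TAFE3_tam, 7309.9 for TAFE4_oil and 2715 for TAFE4_tam. The log2 ratio of tamoxifen to oil was -0.22 (-0.33 to -0.11) with APOE3 and -1.43 (-1.52 to -1.34) with APOE4, that is 1.16-fold and 2.69-fold lower. In the fibroblast clusters alone it stood at 5571 CPM for FE3, 4889.6 for FE4, 6672 for TAFE3_oil, 4490.4 for TAFE3_tam, 8525 for TAFE4_oil and 3464 for TAFE4_tam. There the ratios were -0.57 (-0.73 to -0.42) and -1.30 (-1.42 to -1.17), or 1.49-fold and 2.46-fold lower. The 8 astrocyte markers summed there to 1018 CPM for FE3, 586 for FE4, 1282 for TAFE3_oil, 1789 for TAFE3_tam, 1442 for TAFE4_oil and 765 for TAFE4_tam, so they were higher with tamoxifen in the APOE3 pair and lower in the APOE4 pair, and their part in the APOE ratios was not tested. Without members that carried UMIs of other vascular or glial markers the ratios were -0.93 and -0.80, so the pair with the larger difference changed. The difference between the 2 pairs was not tested. In the clusters set aside, summed, the ratios were 0.41 (0.23 to 0.59) and -1.65 (-1.79 to -1.52). The positive APOE3 sum was not seen in the 3 larger clusters: the ratios with APOE3 were -0.32 (-0.74 to 0.10) in cluster 3, -0.32 (-0.75 to 0.12) in cluster 5 and -0.77 (-1.03 to -0.50) in cluster 6, and 1.93 (-0.24 to 5.13) in cluster 7 with 12 and 2 APOE UMIs. Cluster 6, the richest in APOE, had 10 nuclei in TAFE3_tam and 3 in TAFE3_oil, and 1 nucleus held 52.4% of the APOE UMIs set aside in TAFE3_tam. The median nucleus set aside had 1821 CPM with tamoxifen and 2014 with oil.

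The median nucleus of the fibroblast clusters kept the same order of libraries. Its APOE level was 4150.04 CPM for FE3, 4139 for FE4, 6154 for TAFE3_oil, 3153 for TAFE3_tam, 7380.2 for TAFE4_oil and 2545 for TAFE4_tam. Of nuclei in these clusters, 100, 91.2, 100, 93.1, 100 and 94.5% had a UMI of APOE in the library order above. Thinned to 1000 UMIs each, the nuclei held a mean of 4.56, 5.25, 6.23, 4.06, 8.72 and 3.7 APOE UMIs, which put FE4 above FE3, the reverse of their order by CPM. A few nuclei over 5000 UMIs (4, 5, 4, 2, 3 and 3) held 34.3, 36.9, 26.1, 11.3, 11.1 and 16.6% of all UMIs of these clusters. Without them the tamoxifen ratios were -0.62 (-0.79 to -0.45) with APOE3 and -1.25 (-1.38 to -1.12) with APOE4.

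Each of the 3 fibroblast clusters had less APOE with tamoxifen in both backgrounds. Cluster 1 was at 4879 CPM for FE3, 5335 for FE4, 6797 for TAFE3_oil, 5478 for TAFE3_tam, 8454 for TAFE4_oil and 4916 for TAFE4_tam, with ratios of -0.31 (-0.58 to -0.05) and -0.78 (-0.98 to -0.59). Cluster 2 was at 7047 CPM for FE3, 5984 for FE4, 7884 for TAFE3_oil, 5328 for TAFE3_tam, 11123 for TAFE4_oil and 3082 for TAFE4_tam, with ratios of -0.57 (-0.77 to -0.36) and -1.85 (-2.04 to -1.67). Cluster 4 had the least in every library, at 1499 CPM for FE3, 773 for FE4, 2799 for TAFE3_oil, 1602 for TAFE3_tam, 5505 for TAFE4_oil and 1229 for TAFE4_tam, with ratios of -0.81 (-1.39 to -0.23) and -2.16 (-2.69 to -1.67). In cluster 4 of TAFE3_oil, 1 of the 7 nuclei held 47.0% of the 66 APOE UMIs. The median cluster 4 nucleus was at 2103 CPM in TAFE3_oil and 1734 in TAFE3_tam, a smaller difference than that of the sums. The APOE4 intervals of clusters 2 and 4 overlapped each other and lay below that of cluster 1.

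**Figure D3:**
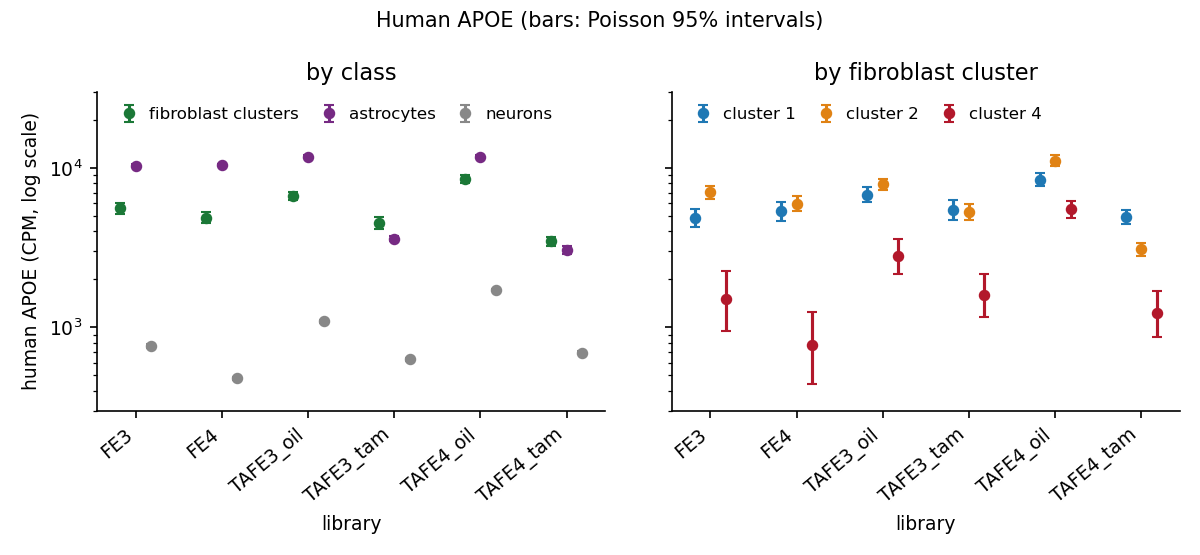
Human APOE (y axis, CPM on a log scale) by library (x axis) in the fibroblast clusters, astrocytes and neurons (left) and in fibroblast clusters 1, 2 and 4 (right); bars are Poisson 95% intervals. Tamoxifen libraries lie below their oil libraries in every series, fibroblasts lie below astrocytes with oil and slightly above them with tamoxifen, and cluster 4 is the lowest fibroblast cluster.

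APOE is known mainly as a gene of astrocytes and of activated microglia, and free RNA in droplets can add UMIs of abundant genes to any nucleus. Neurons, which express little of it, had APOE at 764 CPM for FE3, 477 for FE4, 1088 for TAFE3_oil, 629 for TAFE3_tam, 1716 for TAFE4_oil and 695 for TAFE4_tam, and 76.8 to 99.3% of them had a UMI at median depths of 3138 to 3597 UMIs. Their tamoxifen ratios were -0.79 (-0.84 to -0.74) and -1.30 (-1.35 to -1.26). Fibroblast clusters were at 7.30, 10.2, 6.13, 7.14, 4.97 and 4.99 times the neuronal level by CPM in the library order above. Neurons were deeper, and the gap was smaller by UMIs per nucleus in most libraries. The median fibroblast nucleus had 5.5, 7, 10, 5, 11 and 4 APOE UMIs, and the median neuron 2, 1, 3, 2, 6 and 2. The fibroblast level was thus above that in neurons in all 6 libraries by both measures. The APOE4 tamoxifen ratio of fibroblasts equalled that of neurons to 2 decimals, and the APOE3 ratio was smaller in size than that of neurons, with intervals that did not overlap. Astrocytes were at 10351 CPM for FE3, 10402 for FE4, 11768 for TAFE3_oil, 3607 for TAFE3_tam, 11800.2 for TAFE4_oil and 3042 for TAFE4_tam, with ratios of -1.71 (-1.77 to -1.64) and -1.96 (-2.05 to -1.87). Fibroblast clusters therefore had less APOE than astrocytes in the 4 libraries without tamoxifen and more in both with it. Endothelial nuclei had ratios of -0.78 and -0.46, pericytes and smooth muscle -1.02 and -1.53, and microglia -0.12 and -0.41. Microglia were at 1589.8 CPM for FE3, 1536 for FE4, 13144 for TAFE3_oil, 12135 for TAFE3_tam, 20527 for TAFE4_oil and 15427 for TAFE4_tam, above astrocytes in all 4 P301S libraries and below them in FE3 and FE4. How much of the fibroblast difference came from free RNA and how much from the fibroblasts' own gene was not tested. Aldh1l1, an astrocyte gene, was at 0 to 31.1 CPM in the fibroblast clusters, on 0 to 6 UMIs per library. It was at 58.1 to 116 CPM in astrocytes and 1.20 to 3.27 in neurons.

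Against the untreated libraries, APOE was higher in the fibroblast clusters of the oil-treated P301S libraries, by 0.26 (0.12 to 0.40) with APOE3 and 0.80 (0.66 to 0.94) with APOE4 (log2). Over all members the ratios were -0.38 (-0.47 to -0.28) and 0.13 (0.05 to 0.21), so the APOE3 sign depended on the clusters set aside. Neurons had 0.51 (0.46 to 0.56) and 1.85 (1.80 to 1.89), larger in size than the fibroblast clusters with both alleles. Between alleles, FE4 against FE3 was -0.19 (-0.35 to -0.03), TAFE4_oil against TAFE3_oil 0.35 (0.23 to 0.47) and TAFE4_tam against TAFE3_tam -0.37 (-0.53 to -0.21). Without nuclei over 5000 UMIs the first of these had the other sign, 0.15 (-0.06 to 0.36). Reads assigned to mouse Apoe made 10.6 to 15.0% of human and mouse together. They were lower with tamoxifen too, at 878 CPM for FE3, 708 for FE4, 811 for TAFE3_oil, 533 for TAFE3_tam, 1118 for TAFE4_oil and 614 for TAFE4_tam. Whether they are mouse transcripts or human reads placed on the mouse gene cannot be told apart here.

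Across other genes, the tamoxifen pairs differed at a modest rate. A gene was measured where the 2 libraries together had at least 20 UMIs, and was counted when its CPM differed at least 2-fold. Over all members, 594 of 5178 genes (11.5%) passed with APOE3 and 723 of 8429 (8.58%) with APOE4. In the fibroblast clusters 196 of 2216 genes (8.84%) passed with APOE3 and 365 of 3761 genes (9.7%) with APOE4. Genes to be named were ranked only where measured in both pairs and at or above the level of other nuclei. Of 1284 genes ranked there, 2 were at least 2-fold higher in both and none was 2-fold lower in both. In single pairs 3.52% of genes were 2-fold higher and 5.32% lower with APOE3, and 4.95% and 4.76% with APOE4. The counts below use a stricter sign, a counting interval clear of 0, which 73 of 2216 genes (3.29%) met upward and 95 of 2216 genes (4.29%) downward with APOE3. With APOE4 it was met by 115 of 3761 genes (3.06%) upward and 168 of 3761 genes (4.47%) downward.

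The 2 genes higher in both pairs were Nnat and Trp53i11. Nnat stood at 3046 CPM for FE3, 2132 for FE4, 554 for TAFE3_oil, 1230.1 for TAFE3_tam, 623 for TAFE4_oil and 1619.7 for TAFE4_tam in the fibroblast clusters. Tamoxifen libraries lay above oil libraries and below the untreated ones, with log2 ratios of 1.15 (0.75 to 1.56) and 1.38 (1.06 to 1.71). In cluster 2, which held most of it, Nnat was at 5601 CPM for FE3, 3907 for FE4, 941 for TAFE3_oil, 2077 for TAFE3_tam, 1224 for TAFE4_oil and 2766 for TAFE4_tam. Trp53i11 was at 241 CPM for FE3, 171 for FE4, 118 for TAFE3_oil, 309.7 for TAFE3_tam, 95.3 for TAFE4_oil and 262 for TAFE4_tam, with ratios of 1.39 (0.53 to 2.32) and 1.46 (0.63 to 2.38). In both genes the 2 oil libraries were the lowest of the 6. The same oil libraries serve the comparison with untreated mice below, so the 2 comparisons are not independent.

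Ptgds showed the order of Nnat at a far higher level. This gene (chromosome 2, 25466709 to 25470046, minus strand, GRCm38) encodes the enzyme that makes prostaglandin D2 and that is also a carrier protein of cerebrospinal fluid. It stood at 81755 CPM for FE3, 81113 for FE4, 38578 for TAFE3_oil, 53678 for TAFE3_tam, 39091 for TAFE4_oil and 67698 for TAFE4_tam, so the untreated libraries were highest, the tamoxifen libraries intermediate and the oil libraries lowest. The tamoxifen ratios were 0.48 (0.42 to 0.53) and 0.79 (0.75 to 0.83). In cluster 2 alone the level was 138133 CPM for FE3, 145438 for FE4, 67477 for TAFE3_oil, 102077 for TAFE3_tam, 76164 for TAFE4_oil and 114570 for TAFE4_tam, with ratios of 0.60 (0.54 to 0.65) and 0.59 (0.54 to 0.64). Cluster 1 had ratios of -0.03 (-0.21 to 0.14) and -0.18 (-0.29 to -0.07), and cluster 4 -0.19 (-0.55 to 0.17) and -2.86 (-3.23 to -2.50). The higher level with tamoxifen was thus seen in cluster 2, while with APOE4 clusters 1 and 4 were lower. Cluster 4 was at 4954 CPM for FE3, 2078 for FE4, 5513 for TAFE3_oil, 4841 for TAFE3_tam, 15989.9 for TAFE4_oil and 2207 for TAFE4_tam, highest in TAFE4_oil. Ptgds in all other nuclei stood at 772 CPM for FE3, 655 for FE4, 1187 for TAFE3_oil, 1006 for TAFE3_tam, 1479 for TAFE4_oil and 1485 for TAFE4_tam and did not follow that order.

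**Figure D4:**
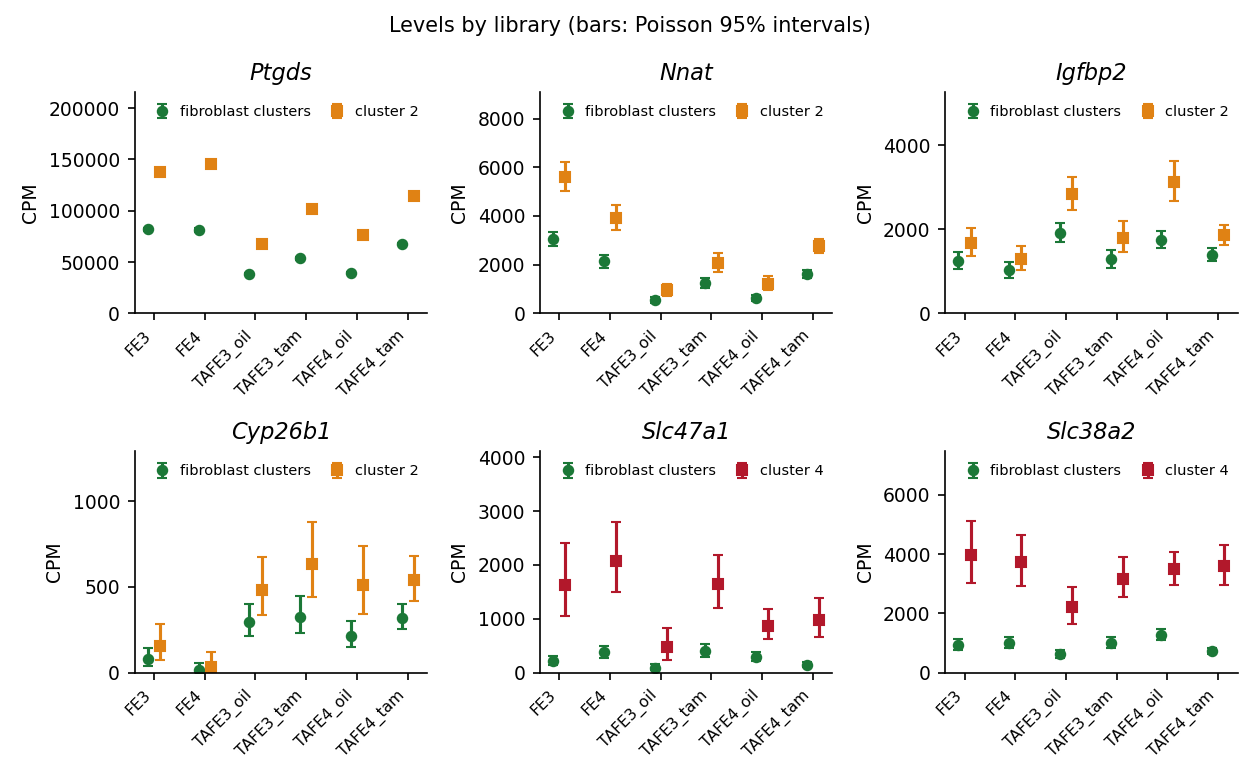
Level (y axis, CPM) by library (x axis) of Ptgds, Nnat, Igfbp2 and Cyp26b1 in the fibroblast clusters and in cluster 2, and of Slc47a1 and Slc38a2 in the fibroblast clusters and in cluster 4; bars are Poisson 95% intervals. Ptgds and Nnat are highest in FE3 and FE4 and lowest in the oil libraries, Cyp26b1 is lowest in FE3 and FE4, and Slc47a1 in cluster 4 is lowest in TAFE3_oil.

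The transporter gene Slc22a8 lay the same way as Ptgds. Slc22a8, an organic anion transporter, was at 443 CPM for FE3, 325 for FE4, 222 for TAFE3_oil, 379 for TAFE3_tam, 184 for TAFE4_oil and 368 for TAFE4_tam, with tamoxifen ratios of 0.77 (0.08 to 1.48) and 1.00 (0.38 to 1.66). Of the transporter and barrier list, 6 genes were higher and 3 lower of 22 measured with APOE3 (median log2 ratio 0.25, all genes -0.02), and 6 higher and 6 lower of 28 with APOE4 (median 0.09, all genes -0.05). The rule gene Slc47a1 was among those higher with APOE3 and those lower with APOE4. Slc22a8 and Ptgds were among those higher in both.

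Slc4a10 and Slc38a2, both highest in cluster 4, lay opposite ways in the 2 backgrounds. Slc4a10 had tamoxifen ratios of 1.34 (0.59 to 2.13) and -1.05 (-1.57 to -0.54), and Slc38a2 of 0.68 (0.27 to 1.09) and -0.82 (-1.12 to -0.52). Nov and Abcg2, also highest in cluster 4, were lower with APOE4, and their intervals held 0 with APOE3. Nov had ratios of 0.00 (-0.82 to 0.81) and -1.21 (-1.83 to -0.60), and Abcg2 of 0.31 (-0.78 to 1.41) and -0.91 (-1.53 to -0.30). Within cluster 4 alone the APOE4 ratios of Slc4a10 and Slc38a2 were 0.07 (-0.50 to 0.63) and 0.04 (-0.32 to 0.40), whose intervals held 0. The APOE3 ratios within it were 0.71 (-0.09 to 1.55) and 0.52 (0.01 to 1.05). The share of cluster 4 nuclei, given above, lay the same way as the summed levels of these 2 genes. The difference between the pairs was not tested. Igfbp5, which binds insulin-like growth factors, had ratios of 0.88 (0.27 to 1.51) and -0.95 (-1.66 to -0.25) in all 3 clusters, and of 0.49 (-0.26 to 1.27) and -1.31 (-2.76 to -0.06) within cluster 4. Slc47a1 (chromosome 11, 61343401 to 61378345, minus strand, GRCm38) was a gene of the selection rule, so its values describe the chosen nuclei and support nothing. It was at 209.8 CPM for FE3, 374 for FE4, 90.1 for TAFE3_oil, 404 for TAFE3_tam, 292 for TAFE4_oil and 139 for TAFE4_tam, with ratios of 2.17 (1.26 to 3.18) and -1.07 (-1.76 to -0.40), and of 1.81 (0.84 to 2.91) and 0.16 (-0.56 to 0.87) within cluster 4. The same holds for the ratios of Dcn, Col1a1 and Col1a2 given below.

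**Figure D5:**
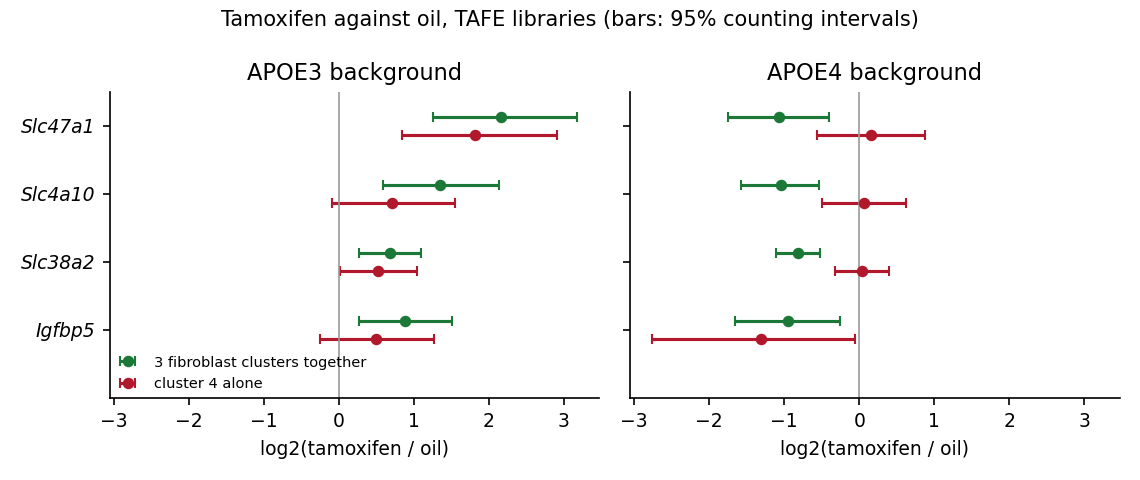
Log2 ratio of tamoxifen to oil (x axis) of Slc47a1, Slc4a10, Slc38a2 and Igfbp5 (y axis) in the 3 fibroblast clusters together and in cluster 4 alone, for the APOE3 and APOE4 pairs; bars are exact binomial 95% intervals. With APOE4 the ratios of Slc4a10 and Slc38a2 are below 0 in the sum and nearer 0 within cluster 4; Slc47a1 was a gene of the selection rule and is shown as a description.

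Matrix genes lay mixed ways with tamoxifen. In the fibroblast clusters, of the proteoglycan and other matrix list, 1 gene was higher and 5 lower of 19 measured with APOE3 (Dcn, Igfbp2, Sparc, Mgp and Svep1 lower), and 1 higher and 4 lower of 23 with APOE4. The beaded and other collagens had 1 gene higher and none lower in each pair (Col12a1 with APOE3, Col13a1 with APOE4). Over all members 2 genes of the proteoglycan and other matrix list were higher and 9 lower of 21 with APOE3, against 411 of 5178 genes (7.94%) higher and 209 of 5178 genes (4.04%) lower overall. With APOE4, 7 were higher and 2 lower of 25, against 432 of 8429 genes (5.13%) and 560 of 8429 genes (6.64%). The rule gene Dcn was among those lower with APOE3 and those higher with APOE4, and the rule gene Lum among those lower with APOE3. Basement membrane genes over all members were lower in 4 and higher in none of 14 with APOE3, and higher in 3 and lower in none of 15 with APOE4. Igfbp2, whose product binds insulin-like growth factors, was lower in both: it stood at 1243 CPM for FE3, 1025 for FE4, 1912 for TAFE3_oil, 1290.3 for TAFE3_tam, 1753 for TAFE4_oil and 1399 for TAFE4_tam, with ratios of -0.57 (-0.86 to -0.28) and -0.33 (-0.56 to -0.09). Decorin had ratios of -0.55 (-0.90 to -0.21) and 0.17 (-0.12 to 0.46), so its interval held 0 with APOE4. Fibrillar collagens had 0 of 4 genes past the interval with APOE3 and 1 of 5, the rule gene Col1a2, lower with APOE4. Complement C4b was at 139.9 CPM for FE3, 155 for FE4, 353 for TAFE3_oil, 138 for TAFE3_tam, 286 for TAFE4_oil and 286 for TAFE4_tam, with ratios of -1.36 (-2.27 to -0.53) and 0.00 (-0.56 to 0.58). The smooth muscle actin gene Acta2 was at 264 CPM for FE3, 114 for FE4, 104 for TAFE3_oil, 8.60 for TAFE3_tam, 19.1 for TAFE4_oil and 249.5 for TAFE4_tam. Its APOE4 ratio was 3.71 (2.10 to 6.03), with few UMIs in TAFE4_oil. The contractile genes Tagln and Tpm2 were also higher in TAFE4_tam (159.5 and 118.6 CPM) than in TAFE4_oil (50.8 and 38.1). The smooth muscle gene Myh11 was at 0 to 54.4 CPM. The part of smooth muscle RNA in these values was not tested.

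Over all members the rule for naming genes gave another list, which drew on the clusters set aside. The highest were Ttr, H2-Q1, Vwf, Setd3 and Phyh, and the lowest Ccl2, Med31, Trabd2b, Nr2f1 and Becn1. Ttr, the choroid plexus carrier of thyroid hormone, was at 1737 CPM for FE3, 1354 for FE4, 1498 for TAFE3_oil, 4936 for TAFE3_tam, 152 for TAFE4_oil and 1270.5 for TAFE4_tam over all members. Its tamoxifen ratios there were 1.72 (1.55 to 1.89) and 3.06 (2.70 to 3.44). In the fibroblast clusters it had ratios of -1.12 (-1.46 to -0.78) and 3.00 (2.46 to 3.59), so the APOE3 sign turned. The chemokine Ccl2 was at 29.3 CPM for FE3, 6.13 for FE4, 81.2 for TAFE3_oil, 7.07 for TAFE3_tam, 34.1 for TAFE4_oil and 9.17 for TAFE4_tam over all members, with ratios of -3.52 (-6.66 to -1.48) and -1.90 (-3.71 to -0.36).

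Between the oil-treated P301S libraries and the untreated ones, Ptgds and Nnat were lower and Cyp26b1 higher with both alleles. Over all members, 791 of 5998 genes (13.2%) passed 2-fold with APOE3 and 922 of 7061 (13.1%) with APOE4, and in the fibroblast clusters 247 of 2407 genes (10.3%) and 313 of 2372 genes (13.2%). Of 1155 genes ranked in both pairs of the fibroblast clusters, 10 were at least 2-fold higher in both and 9 lower in both. In single pairs 5.69% of genes were 2-fold higher and 4.57% lower with APOE3, and 8.39% and 4.81% with APOE4. An interval clear of 0 was met upward by 87 of 2407 genes (3.61%) with APOE3 and 190 of 2372 genes (8.01%) with APOE4, and downward by 109 of 2407 genes (4.53%) and 105 of 2372 genes (4.43%).

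Nnat led the genes that were lower, with log2 ratios of -2.46 (-2.82 to -2.11) with APOE3 and -1.78 (-2.13 to -1.44) with APOE4. Without nuclei over 5000 UMIs, which held 34.3 and 36.9% of the UMIs in FE3 and FE4, these were -0.87 and -0.78. Ptgds had ratios of -1.08 (-1.13 to -1.04) and -1.05 (-1.10 to -1.01), and -0.60 and -0.56 without those nuclei. Within cluster 2 the Ptgds ratios were -1.03 (-1.08 to -0.98) and -0.93 (-0.99 to -0.88). Cluster 1 had -1.12 (-1.26 to -0.99) and -0.19 (-0.31 to -0.07), and cluster 4 0.15 (-0.26 to 0.58) and 2.94 (2.5 to 3.42), so with APOE4 cluster 4 lay the other way. Tagln and Tpm2, actin-binding genes of contractile cells, had ratios of -1.61 (-2.76 to -0.58) and -1.75 (-3.13 to -0.52), and -1.17 (-2.42 to 0.00) and -1.58 (-3.25 to -0.11). Without the deep nuclei the APOE3 ratios of these 2 genes were -0.11 and -0.34. The clock output factor Dbp had ratios of -1.53 (-3.03 to -0.20) and -1.54 (-2.71 to -0.47). The membrane protein gene Emp3 was at 427 CPM for FE3, 325 for FE4, 194 for TAFE3_oil, 301.08 for TAFE3_tam, 102 for TAFE4_oil and 229 for TAFE4_tam, lower in both oil libraries than in the untreated ones.

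Of the retinoic acid genes, Cyp26b1 was higher in both oil libraries than in the untreated ones. Cyp26b1, which clears retinoic acid, was at 77.7 CPM for FE3, 16.3 for FE4, 298 for TAFE3_oil, 327 for TAFE3_tam, 216 for TAFE4_oil and 319 for TAFE4_tam. All 4 P301S libraries lay above both untreated ones, and the ratios of the oil libraries to them were 1.94 (0.92 to 3.1) and 3.73 (1.77 to 6.83). The FE4 level stood on 2 UMIs. Without nuclei over 5000 UMIs the ratios were 3.47 and 2.67, with FE3 at 23.7 CPM and FE4 at 25.8 CPM, again on few UMIs. Of the retinoic acid list, 1 gene was higher and 1 lower of 8 measured with APOE3, and the same of 7 with APOE4, and the higher one was Cyp26b1 in both.

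Transporters were lower more often than higher with APOE3: 9 of 24 measured were lower and 2 higher (median log2 ratio -0.27, all genes 0.00). With APOE4, 4 of 23 were lower and 5 higher (median -0.09, all genes 0.09). The rule gene Slc47a1 was among those lower with APOE3. Slc22a8 and Ptgds were among those lower in both, Slc22a8 with ratios of -1.0 (-1.67 to -0.35) and -0.82 (-1.56 to -0.10). The APOE3 ratio of Slc22a8 turned to 0.28 without nuclei over 5000 UMIs. Those higher with APOE4 included Slc4a10, Slc38a2, Slc26a2 and Abcg2, which were highest in cluster 4, and the share of cluster 4 was 12.3% in FE4 and 24.4% in TAFE4_oil.

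Igfbp2 and Nov were higher in both oil libraries than in their untreated ones. Igfbp2 had ratios of 0.62 (0.34 to 0.91) and 0.77 (0.47 to 1.09). Nov, highest in cluster 4, was at 54.4 CPM for FE3, 138 for FE4, 215 for TAFE3_oil, 215 for TAFE3_tam, 368 for TAFE4_oil and 159.5 for TAFE4_tam, with ratios of 1.98 (0.77 to 3.41) and 1.41 (0.61 to 2.29). Type I collagen (Col1a1) was at 505 CPM for FE3, 277 for FE4, 540.4 for TAFE3_oil, 559 for TAFE3_tam, 648 for TAFE4_oil and 499 for TAFE4_tam, with ratios of 0.10 (-0.40 to 0.60) and 1.23 (0.66 to 1.83). C4b was higher too, with ratios of 1.34 (0.54 to 2.20) and 0.89 (0.08 to 1.74) (2.47 and 0.11 without nuclei over 5000 UMIs), and other nuclei had it at 19.0 CPM for FE3, 22.3 for FE4, 103 for TAFE3_oil, 77.7 for TAFE3_tam, 104 for TAFE4_oil and 147 for TAFE4_tam.

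Lyz2 and C1qb, genes of macrophages and microglia, were among the highest by the naming rule. Lyz2 was at 46.6 CPM for FE3, 56.9 for FE4, 166 for TAFE3_oil, 94.6 for TAFE3_tam, 241 for TAFE4_oil and 176 for TAFE4_tam in the fibroblast clusters, with ratios of 1.83 (0.51 to 3.42) and 2.08 (0.90 to 3.49). C1qb had ratios of 1.37 (0.23 to 2.64) and 1.43 (0.52 to 2.45). Without nuclei over 5000 UMIs Lyz2 had 4.06 and 2.24 and C1qb 0.89 and 2.04. In all other nuclei Lyz2 was at 5.62, 3.90, 58.3, 28.1, 63.7 and 49.3 CPM and C1qb at 35.0, 39.1, 183, 116, 192 and 197 CPM in the library order above, so both were higher there as well. The interferon and MHC class I list summed to 2238 CPM for FE3, 2066 for FE4, 3298 for TAFE3_oil, 3295 for TAFE3_tam, 3062 for TAFE4_oil and 3550.3 for TAFE4_tam in the fibroblast clusters. In all other nuclei it summed to 416 CPM for FE3, 355 for FE4, 907 for TAFE3_oil, 823 for TAFE3_tam, 863 for TAFE4_oil and 1384 for TAFE4_tam. It was higher in the 4 P301S libraries than in FE3 and FE4 in both populations, and fibroblasts had more of it than other nuclei in each library. Among its genes measured in the fibroblast clusters, 2 of 8 were past the interval upward with APOE3 (Ifi27 and H2-K1) and 1 of 11 with APOE4 (Ifit1), and none downward. Over all members 1 gene of the list was higher and 6 lower of 22 measured with APOE3, against 325 of 5998 genes (5.42%) higher and 564 of 5998 genes (9.4%) lower overall. With APOE4, 11 were higher and none lower of 20, against 804 of 7061 genes (11.4%) and 362 of 7061 genes (5.13%). The direction over all members thus differed between the 2 pairs, which was not tested. Endothelial markers over all members lay the same ways. They summed to 2137 CPM for FE3 and 654 for TAFE3_oil, and to 591 for FE4 and 1792 for TAFE4_oil. The part of cluster 5, set aside for endothelial and smooth muscle genes, in these counts was not tested.

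Over all members the genes highest by the naming rule were Mir6236, Adam33, Col4a6, Ahnak2 and Cyp26b1, and the lowest Col9a3, Bcan, Igfbp3, Fjx1 and Bcat2. Adam33, a membrane metalloprotease of mesenchymal cells, was at 26.6 CPM for FE3, 12.3 for FE4, 106 for TAFE3_oil, 42.4 for TAFE3_tam, 50.02 for TAFE4_oil and 66.0 for TAFE4_tam. Col4a6, a basement membrane collagen chain, had ratios of 1.61 (0.30 to 3.04) and 1.83 (0.41 to 3.58). Col9a3, a chain of type IX collagen, was at 279.8 CPM for FE3, 260.4 for FE4, 24.4 for TAFE3_oil, 201 for TAFE3_tam, 43.2 for TAFE4_oil and 23.8 for TAFE4_tam. Bcan, a proteoglycan of glia, was at 205 CPM for FE3, 254 for FE4, 60.9 for TAFE3_oil, 173 for TAFE3_tam, 75.0 for TAFE4_oil and 69.7 for TAFE4_tam. Both were lower in each oil library than in FE3 and FE4, and TAFE3_tam lay between. Col9a3 was a leading gene of cluster 6, set aside for astrocyte and choroid plexus genes (744 CPM, against 47.1 in other members). That cluster had 12, 9, 3, 10, 7 and 4 nuclei in the library order above. In the fibroblast clusters Col9a3 was at 109 CPM for FE3, 16.3 for FE4, 6.93 for TAFE3_oil and 19.1 for TAFE4_oil. The part of cluster 6 in these levels was not tested.

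Between the alleles few genes differed alike in both pairs. Over all members, 1014 of 6535 genes (15.5%) passed 2-fold between FE4 and FE3, 610 of 6585 (9.26%) between TAFE4_oil and TAFE3_oil, and 845 of 7515 (11.2%) between TAFE4_tam and TAFE3_tam. The counts in the fibroblast clusters were 210 of 2087 genes (10.1%), 265 of 2742 genes (9.66%) and 356 of 3283 genes (10.8%). Of 1121 genes ranked in the untreated and oil pairs of the fibroblast clusters, 2 were at least 2-fold higher with APOE4 in both, Fam177a among them, and 2 lower in both (Smc3 and Ttr). Fam177a had ratios of 1.31 (0.06 to 2.72) and 1.06 (-0.02 to 2.23), and Smc3 of -1.37 (-2.87 to -0.06) and -1.32 (-2.84 to 0.04). In single pairs 3.74% were 2-fold higher and 6.32% lower untreated, and 5.22% and 4.45% with oil. Of the 5 highest by the naming rule, Dfna5 and Tspan13 had both intervals clear of 0. Dfna5, which encodes the pore-forming gasdermin E, was at 303 CPM for FE3, 569 for FE4, 270.2 for TAFE3_oil, 473 for TAFE3_tam, 559 for TAFE4_oil and 393 for TAFE4_tam, with APOE4 to APOE3 ratios of 0.91 (0.33 to 1.51) untreated and 1.05 (0.49 to 1.63) with oil. The membrane protein gene Tspan13 had ratios of 1.07 (0.01 to 2.20) and 0.92 (0.02 to 1.88), the first of which was 0.49 without nuclei over 5000 UMIs. Ttr was lower, with ratios of -1.30 (-1.60 to -1.01) and -3.31 (-3.90 to -2.76), and other nuclei had Ttr at 1511 CPM for FE3, 856 for FE4, 1684 for TAFE3_oil, 1081 for TAFE3_tam, 116 for TAFE4_oil and 889 for TAFE4_tam, in the same order for these pairs.

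With APOE4, basement membrane genes were lower more often than higher in the untreated and oil pairs, and not with tamoxifen. Fibrillar collagens were so in the untreated pair, and none passed either way with oil. Over all members an interval clear of 0 was met by 434 of 6535 genes (6.64%) upward and 793 of 6535 genes (12.1%) downward in FE4 against FE3, and by 383 of 6585 genes (5.82%) and 176 of 6585 genes (2.67%) with oil. There 2 of 6 fibrillar collagens measured were lower and none higher in FE4 against FE3, as were 6 of 14 basement membrane genes (median log2 ratios -0.45 and -0.63, all genes -0.08). The 2 fibrillar collagens were Col5a1 and the rule gene Col1a1. With oil, 0 of 5 and 2 of 15 were lower and none higher (medians -0.51 and -0.30, all genes 0.08). With tamoxifen, where 408 of 7515 genes (5.43%) were higher and 472 of 7515 genes (6.28%) lower, 0 of 5 fibrillar collagens passed either way, and 2 of 15 basement membrane genes, Col18a1 and Lamb2, were higher and none lower (medians 0.13 and 0.46). Endothelial markers over all members summed to 2137, 591, 654, 1523, 1792 and 1111 CPM in the library order above. Cluster 5, set aside for endothelial and smooth muscle genes, had 12, 4, 5, 7, 5 and 19 nuclei in that order. The part of cluster 5 in these counts over all members was not tested. In the fibroblast clusters, where 64 of 2087 genes (3.07%) were higher and 109 of 2087 genes (5.22%) lower untreated, and 4.16% and 3.32% with oil, 1 of 3 and 2 of 9 were lower in the untreated pair, and 0 of 4 and 2 of 12 in the oil pair. One of those lower untreated, Lamb2, had a ratio of -0.80 (-1.60 to -0.04), and of 0.23 without nuclei over 5000 UMIs. In the tamoxifen pair of these clusters (2.59% of genes higher and 4.02% lower) 1 of 4 fibrillar collagens was lower and 0 of 14 basement membrane genes passed. The fibrillar collagens lower in these clusters, Col1a1 untreated and Col1a2 with tamoxifen, were genes of the rule, so they describe the chosen nuclei only. The Notch ligand Jag1 was among the genes lower over all members, at 152 CPM for FE3, 42.9 for FE4, 118 for TAFE3_oil, 63.6 for TAFE3_tam, 43.2 for TAFE4_oil and 51.3 for TAFE4_tam.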

How the data were processed

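Nuclei were isolated from frozen mouse hippocampus and sequenced as droplet libraries, 1 per group. The deposited values are whole-number counts of UMIs per gene and barcode in 33457 features. Per the file headers, Cell Ranger 3.1.0 wrote the matrices. The submitters' processing notes name the mm10 genome. Nuclei and barcodes are as the authors deposited them, and cell filters were applied here, as given above. Human APOE is an added feature, while human tau and Cre are not measured. The labels' protocols name both a 3′ and a 5′ kit.

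The members and gene lists were chosen with earlier results of these data known. Counts were summed over nuclei of a library and divided by their total (CPM). Ratios are log2 of CPM with exact binomial intervals at 95%, and a count of 0 was set to 3 UMIs and given as a bound. Genes needed 20 UMIs over both libraries. Members were clustered with Scanpy 1.11.5 (2000 variable genes, 20 components, 15 neighbours, Leiden resolution 1). Other cell types were picked by at least 3 of their markers (4 for astrocytes). Neurons were instead nuclei over the limit on Slc17a7 or on Gad1 and Gad2 that met none of the vascular or glial marker rules. Doublets were marked by Scrublet and kept. In TAFE3_oil its expected share was used in place of a threshold. Genes were named by rule: the 25 highest by their lowest ratio to other nuclei, and the 5 highest and 5 lowest by the smaller of 2 ratios of equal sign, applied to all members and to the fibroblast clusters. Members of the gene lists could be named too. Some genes that the rule or the lists hold are not reported here. Genes of the selection rule are described only. Any other gene named was chosen after its values were seen. The ratio code was checked on simulated counts. Gene positions come from GENCODE annotation of GRCm38.

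Alternatives covered depth, mitochondrial limit, number of markers, doublets, other markers, TMM factors from edgeR 4.0.16, another total, thinning and a limit of 50 UMIs. The fibroblast clusters, the limit of 5000 UMIs per nucleus and leaving out liver-gene nuclei were added after seeing the data.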

Additional observations from a re-analysis of the deposited data

Results flagged for a closer look

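Several genes of the lists lay opposite ways in the APOE3 and APOE4 pairs of the fibroblast clusters, with counting intervals clear of 0 in both pairs. These intervals cover counting error only, and none of these differences between pairs was tested. For tamoxifen against oil, the log2 ratios with APOE3 and APOE4 were 0.88 and -0.95 for Igfbp5, 2.17 and -1.07 for Slc47a1, 1.34 and -1.05 for Slc4a10, and 0.68 and -0.82 for Slc38a2. All 4 genes were highest in cluster 4, whose share of nuclei lay the same way. Slc47a1 was a gene of the selection rule, so its ratios are a description only. Apod, a lipid carrier, had -0.24 and 0.46. For oil-treated P301S against untreated libraries, the ratios were 0.66 and -0.68 for Itih5, -0.59 and 0.35 for Slc38a2, and -1.05 and 0.50 for Spp1. Without nuclei over 5000 UMIs the APOE3 ratio of Spp1 was 0.04, so the opposite directions of Spp1 rest on those nuclei. The ratios were then 0.66 and -1.08 for Itih5 and -0.62 and 0.50 for Slc38a2. The tamoxifen and tau ratios share the oil libraries, so a high or low oil library enters both.

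Outside the fibroblast comparisons, 51 nuclei of TAFE4_tam carried UMIs of at least 4 of 10 liver genes, against 0 and 1 in FE3 and FE4, 5 and 1 in TAFE3_oil and TAFE3_tam, and 6 in TAFE4_oil. Of the members, 5 in TAFE4_tam and 1 in FE4 did so, and the FE4 nucleus alone held 21750 UMIs and 317 of APOE.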

How the results depend on the processing

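No paired analysis was possible because each group is 1 library and the labels carry no replicate numbers, and for the same reason no replicate could be left out. In the order FE3, FE4, TAFE3_oil, TAFE3_tam, TAFE4_oil, TAFE4_tam, the share of fibroblast nuclei was 0.530, 0.345, 0.533, 0.536, 0.629 and 0.879% in the fibroblast clusters alone, 1.45, 0.751, 1.22, 1.54, 1.83 and 1.45% with no mitochondrial limit, 0.493, 0.327, 0.473, 0.490, 0.567 and 0.609% with at least 4 of 9 markers, and 0.164, 0.103, 0.112, 0.157, 0.146 and 0.291% without members carrying other vascular or glial markers. The log2 ratio of APOE with tamoxifen was below 0 in each of these alternatives. With APOE3 and APOE4 it was -0.57 and -1.30 in the fibroblast clusters, -0.73 and -1.20 with no mitochondrial limit, -0.56 and -1.54 with at least 4 markers, and -0.93 and -0.80 without members carrying other markers. With TMM factors the APOE4 ratio in the fibroblast clusters was -1.17. Genes past 2-fold, in the order tamoxifen with APOE3 and APOE4, tau with APOE3 and APOE4, and APOE4 against APOE3 untreated, with oil and with tamoxifen, numbered 196, 365, 247, 313, 210, 265 and 356 in the fibroblast clusters. They numbered 50, 117, 44, 69, 48, 63 and 101 without members carrying other markers, and 109, 179, 192, 224, 299, 92 and 209 with at least 50 UMIs over both libraries, where fewer genes were measured. Genes 4-fold higher than in other nuclei numbered 371 in the fibroblast clusters and 50 without members carrying other markers. Both populations held fewer UMIs than all members, so fewer genes were measured in them, for these and for the 2-fold counts. The counts are therefore not comparable as shares. Among these alternatives the sign turned for 3 named genes: Ttr with tamoxifen and APOE3 was -1.12 in the fibroblast clusters, and Rgcc and Rc3h1 between the oil libraries were -0.50 and -0.37 with no mitochondrial limit, for which the cause was not tested. Of the ratios printed for the fibroblast clusters, leaving out nuclei over 5000 UMIs also turned the sign for Slc22a8 (0.28), Spp1 (0.04) and Col1a1 (-0.04) between TAFE3_oil and FE3, for APOE (0.15) and Lamb2 (0.23) between FE4 and FE3, and for Nov with tamoxifen and APOE3 (-0.17). Depth limits all single genes, since the fibroblast clusters held 57 to 127 nuclei of 1310 to 1673 median UMIs per library.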

Other observations

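Lipid genes besides APOE were also high in the fibroblast clusters. Apolipoprotein D (Apod) was at 3054 CPM for FE3, 3214 for FE4, 3118 for TAFE3_oil, 2632 for TAFE3_tam, 2427 for TAFE4_oil and 3338 for TAFE4_tam, and at 3038, 3985 and 316 CPM in clusters 1, 2 and 4. Clusterin (Clu) was at 443 to 832 CPM, against 215 to 349 in other nuclei, and highest in cluster 2 (917 CPM). The lipoprotein receptor Lrp1 was at 353 to 439 CPM against 171 to 203. The metallothionein gene Mt1 was at 559 CPM for FE3, 488 for FE4, 769 for TAFE3_oil, 757 for TAFE3_tam, 838 for TAFE4_oil and 438 for TAFE4_tam. The chemokine gene Cxcl12, which draws cells along the meninges, was at 404 CPM for FE3, 293 for FE4, 305 for TAFE3_oil, 172 for TAFE3_tam, 260.4 for TAFE4_oil and 176 for TAFE4_tam, lower in each tamoxifen library than in its oil library, and had an interval clear of 0 with APOE3 only (-0.83 (-1.67 to -0.03) and -0.57 (-1.22 to 0.09)). The adhesion gene Vcam1 was at 272 CPM for FE3, 146 for FE4, 208 for TAFE3_oil, 103 for TAFE3_tam, 197 for TAFE4_oil and 155 for TAFE4_tam.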
